A study of Mus musculus with 6 samples.

Results

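Dendritic epidermal T cells (DETCs), the gamma-delta T cells of mouse epidermis, were picked out of dissociated dorsal skin by their transcripts. The rule began with cells holding 500 or more UMIs (unique molecular identifiers, each counting 1 captured transcript) and 300 or more genes, of whose UMIs no more than 10% were mitochondrial. Of these it took cells with at least 1 UMI of Cd3d, Cd3e or Cd3g and at least 1 of Trdc or Tcrg-V5, with 0 UMIs of Cd163l1 and of Trac. It found 451 DETCs among 34834 kept cells. The skin came from male wildtype C57BL/6 mice and was sequenced in droplets in 6 libraries. The libraries were skin of 8-, 26- and 52-week-old mice treated ex vivo with PBMC-sec, the secretome of gamma-irradiated peripheral blood mononuclear cells, and untreated skin of the same 3 ages. Each library pooled 3 animals, and each age and treatment has 1 library. Treated skin was held outside the body before dissociation and untreated skin was processed directly, so PBMC-sec and culture cannot be told apart here. The labels give neither dose nor duration.

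DETCs settle in the epidermis before birth and stay there with long dendrites between the keratinocytes. Nearly all carry the same T cell receptor, a Tcrg-V5 gamma chain with a Trdv4 delta chain, and they also use activating receptors of natural killer (NK) cells. They are known for surveying stressed or wounded keratinocytes, for releasing growth factors that aid repair, and for killing through perforin and granzymes. The gamma-delta T cells of the dermis are a separate population that carries Cd163l1 (Scart1) and makes interleukin-17, and alpha-beta T cells carry Trac.

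The rule gave 71, 98 and 43 DETCs in the 8-, 26- and 52-week PBMC-sec libraries, with 94414, 214975 and 134475 UMIs in sum. Untreated libraries of the same ages gave 103, 110 and 26 DETCs with 239786, 218844 and 70073 UMIs. The median DETC held 977, 1232 and 1434 UMIs with PBMC-sec and 1503, 1166 and 1859.5 UMIs untreated, whereas the median kept cell held 2613, 3493.5 and 4804 UMIs with PBMC-sec and 1128, 2211 and 3064 UMIs untreated. A few deep barcodes carried much of the RNA: 34 DETCs above 5000 UMIs held 19.99% to 54.3% of a library's DETC UMIs, and 1 barcode of the 52-week PBMC-sec library held 36.3%. Tests are therefore given with and without these barcodes. In the 8-week untreated library 4306 kept barcodes (46.6%) had near-identical repeated profiles, 12 of them DETCs. Of the kept barcodes 690 occurred in more than 1 library, but 0 DETC barcodes were a DETC in a further library, and 11 were a kept cell of another one.

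The genes of the rule describe the cells and are not tested. Of the 451 DETCs, 133 held UMIs of both Trdc and Tcrg-V5, 92 of Tcrg-V5 alone and 226 of Trdc alone. Near the thresholds, 56 DETCs had a single Cd3 UMI and 204 a single UMI of Trdc or Tcrg-V5. Just outside, 21 cells were left out by a Cd163l1 UMI, 33 by a Trac UMI, and 951 cells with Trdc or Tcrg-V5 had no Cd3 UMI. The receptor genes lie at chr14:54142851-54148868 (Trdc, plus strand), chr13:19192278-19192725 (Tcrg-V5, plus strand) and chr14:54074905-54075515 (Trdv4, plus strand) in GRCm38.

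Trdc, the delta constant segment, was also read in cells without Cd3 UMIs. Among Cd3-negative cells with 5 or more UMIs of Col1a1, Col1a2, Col3a1 and Dcn, a UMI of Trdc occurred in 19.5%, 19.7% and 33.5% of cells at 8, 26 and 52 weeks with PBMC-sec, against 3.95%, 5.80% and 6.503% untreated. These cells had medians of 3586, 3626 and 6740 UMIs with PBMC-sec and 2948, 2316 and 5083 UMIs untreated. They held 0 UMIs of Tcrg-V5 in each library. A Trdv4 UMI was seen in 0, 2 and 0 of them at 8, 26 and 52 weeks with PBMC-sec and in 9, 2 and 2 untreated. Among Cd3-negative cells with 5 or more UMIs of Krt14 and Krt5, whose medians ran from 1235.5 to 7206.5 UMIs, Trdc was found in 0.0828% to 0.485%. DETCs known by Trdc alone numbered 28, 69 and 34 with PBMC-sec and 33, 53 and 9 untreated. A Tcrg-V5 UMI was present in 60.6%, 29.6% and 20.9% of DETCs with PBMC-sec and in 68.0%, 51.8% and 65.4% untreated. How far collagen-rich cells or their free RNA entered the Trdc-only DETCs was not tested. Values for DETCs with a Tcrg-V5 UMI are given below for genes that passed the low-count filter there.

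Genes outside the rule were read in many DETCs. Trdv4, the delta variable segment of the DETC receptor, was found in 341 DETCs, and Nkg7, a granule membrane protein of killer lymphocytes, in 293. Of a list of 22 DETC-associated genes, 18 to 20 were detected per library. Ccr10 was not detected in DETCs of any library. Ccr4 was missing at 8 and 52 weeks and Tyrobp at 52 weeks, with PBMC-sec and untreated alike. Klre1 was missing at 8 and 26 weeks with PBMC-sec and at 52 weeks untreated. Gzmb was missing at 26 weeks untreated and Cd160 at 52 weeks with PBMC-sec. In an unsupervised clustering of each library, 389 of the 451 DETCs fell into the cluster with the most DETCs of that library. The genes of the rule were not removed before clustering, and the other cells of these clusters were not counted. The grouping is thus a description and not a test of identity. Cd7, a T and NK cell surface protein, was detected in 94.4%, 92.9% and 83.7% of DETCs with PBMC-sec and 87.4%, 96.4% and 92.3% untreated. Across the 6 libraries Cd7 was detected in 18.98% to 56.6% of the other Cd3-positive cells and in 1.31% to 2.78% of all kept cells that were not DETCs. Fcer1g, the signalling adaptor of NK-type receptors, was found in 81.6% to 92.7% of DETCs, against 20.3% to 52.6% of other Cd3-positive cells and 4.05% to 13.6% of all other kept cells. The other Cd3-positive cells had medians of 908, 1236 and 1570.5 UMIs with PBMC-sec and 1019, 1145 and 1796 UMIs untreated, so that in the 8-week untreated library, which holds 295 of the 635, they were shallower than the DETCs (1503 UMIs).

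**Figure D1:**
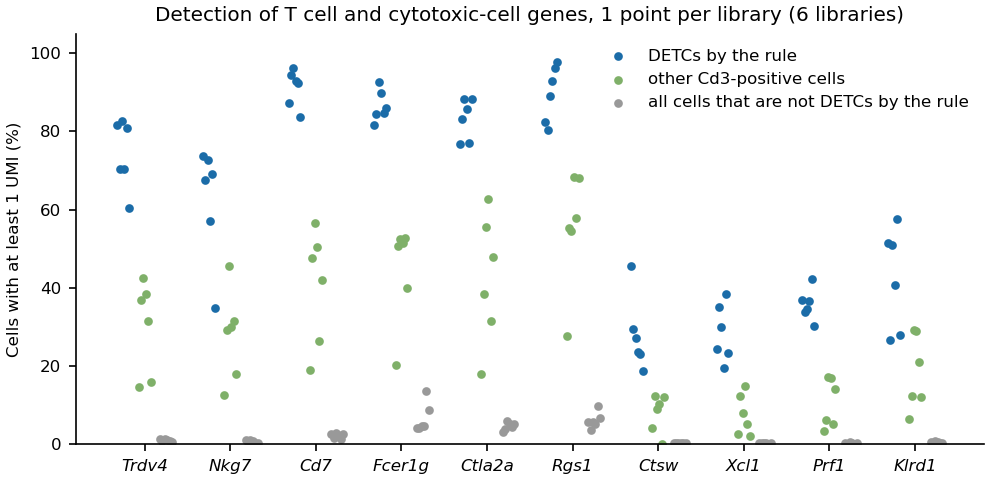
Percent of cells with at least 1 UMI of 10 T cell and cytotoxic-cell genes, 1 point per library, for DETCs (blue), other Cd3-positive cells (green) and all cells that are not DETCs by the rule (grey). Trdv4 is found in 60.5% to 82.7% of DETCs, and the blue points of Cd7 lie above the green ones in each of the 6 libraries.

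Marker lists of other lymphocytes were in part at 0 and in part detected. Of the dermal gamma-delta list, Il17a, Il17f, Blk and Sox13 had 0 UMIs in DETCs of all 6 libraries, and 1 to 4 of its 11 measured genes were detected per library (summed level 74.4 to 126 CPM with PBMC-sec and 86.8 to 243 CPM untreated, CPM being a gene's share of the summed DETC UMIs scaled to the usual CPM total). Of the alpha-beta list, Cd4, Cd8a and Cd6 had 0 UMIs in each library, and 2 to 4 of 8 genes were detected (119 to 212 CPM with PBMC-sec and 128 to 169 CPM untreated, against 8.22 to 15.99 CPM and 5.87 to 9.24 CPM in all other kept cells). Trbc1 and Trbc2, the beta constant segments, made up most of that sum, with 87 and 72 UMIs in all DETCs. Of the NK cell and innate lymphoid list, Ncr1 and Eomes were at 0 and 5 or 6 of 12 genes were detected (1133 to 2067 CPM with PBMC-sec and 842 to 1243 CPM untreated, against 1023 to 1299 CPM and 833 to 998 CPM in all other kept cells). Areg led that list with 660 UMIs in all DETCs, before Il1rl1 with 203, Klf5 with 195, Gata3 with 111 and Il13 with 27. Transcripts of skin cells were present. The keratinocyte list, with 13 or 14 of 14 genes detected, summed to 10878 to 28794 CPM in DETCs with PBMC-sec and 9990 to 25456 CPM untreated, against 28695 to 39647 CPM and 26738 to 42964 CPM in all other kept cells of the treated and untreated libraries. Without DETCs above 5000 UMIs the keratinocyte list summed to 4376 to 8776 CPM with PBMC-sec and 7843 to 14744 CPM untreated. The Langerhans and dendritic cell list, with 4 to 8 of 11 genes detected, stood at 126 to 1130 CPM with PBMC-sec and 200 to 6910 CPM untreated, and at 97.6 to 225 CPM and 116 to 2544 CPM without the deep barcodes. The fibroblast list (3 to 9 of 9 genes) gave 107 to 1832 CPM with PBMC-sec and 238 to 2241 CPM untreated, the macrophage list (2 to 6 of 12, with Mrc1 and Ccr2 at 0 throughout) 42.4 to 89.2 CPM and 110 to 234 CPM, the mast cell and neutrophil list (2 to 4 of 10) 52.1 to 126 CPM and 186 to 563 CPM, and the endothelial and mural list (0 to 6 of 7) 7.44 to 60.5 CPM and 0 to 45.7 CPM.

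DETCs were set against the 635 other Cd3-positive cells of the same libraries, which had neither Trdc nor Tcrg-V5 UMIs, to see which genes outside the rule set them apart. Of 4219 genes, 59 (1.4%) passed an adjusted p of 0.05 in edgeR's quasi-likelihood test with library as a block, 44 higher (1.04%) and 15 lower (0.356%) in DETCs. Genes of killer lymphocytes were among them, beside genes of no list, and the lists overlap. Of 17 tested DETC-associated genes 8 were higher and 0 lower, with a median log2 difference of 1.35, against -0.03 over all genes tested. Trdv4, part of the receptor that the rule reads, was among the 8 and enters that median. Of 12 cytotoxic granule genes 5 were higher (median 1.14), and of 8 NK receptor and adaptor genes 3 were higher (median 1.38). Of 14 genes of the T cell receptor complex 4 were higher (median 1.08), with 0 lower in each of these lists. Gzmc was among the granule genes called. Its UMIs in DETCs were 114, 172 and 44 with PBMC-sec and 2, 5 and 1 untreated, so this call is not independent of the treatment difference given below.

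Cd7 stood at 4141, 2865 and 1673 CPM in DETCs of the PBMC-sec libraries and 3215, 3496 and 3282 CPM untreated, against 1119, 1081 and 618 CPM and 371, 1387 and 1083 CPM in the other Cd3-positive cells of the same libraries. It was higher in DETCs in 6 of 6 libraries, by 1.68 on the log2 scale (SE 0.23, adjusted p = 0.020 in edgeR). The same direction in each library was a condition for the 15 genes named by size of difference, Cd7 and Nkg7 among them. Nkg7, given as a marker with the cell type, stood at 1102, 507 and 216 CPM with PBMC-sec and 1013, 886 and 557 CPM untreated, against 296, 220 and 90.5 CPM and 125, 351 and 178 CPM in the other Cd3-positive cells (log2 1.63, SE 0.26, adjusted p = 0.020 in edgeR). Nkg7 too was higher in 6 of 6 libraries, with its lowest level at 52 weeks with PBMC-sec in both classes. Trdv4 and Tcrg-C1 belong to the receptor that the rule reads and are described only: Trdv4 stood at 275 to 1506 CPM in DETCs and 90.5 to 439 CPM in the other cells.

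Among killing genes, Prf1 (perforin, chr10:61297833-61304680, plus strand) stood at 286, 223 and 141 CPM with PBMC-sec and 238, 210 and 257 CPM untreated, against 38.2, 87.0 and 52.8 CPM and 30.2, 106 and 32.3 CPM in the other Cd3-positive cells. It was higher in DETCs by 1.84 on the log2 scale (SE 0.32, adjusted p = 0.022 in edgeR). Ctsw (cathepsin W, a lymphocyte granule protease) was higher by 1.90 (SE 0.32), and Cst7 (cystatin F, which restrains granule proteases) by 1.88 (SE 0.39, adjusted p = 0.042 in edgeR). Of the NK receptors and their adaptors, Fcer1g was higher by 1.35 (SE 0.26), Klrd1 (CD94) by 1.447 (SE 0.29) and Klrb1b by 1.44 (SE 0.24). Xcl1, a chemokine that draws cross-presenting dendritic cells, was higher by 1.86 (SE 0.34, adjusted p = 0.030 in edgeR).

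Receptor signalling genes outside the rule were Cd247 (the zeta chain), higher by 1.61 (SE 0.28), Lat (the scaffold downstream of the receptor) by 1.34 (SE 0.27), Skap1 (an adaptor of integrin activation) by 1.25 (SE 0.23) and Thy1 by 1.10 (SE 0.23). Ctla2a and Ctla2b, inhibitors of cysteine proteases, were higher by 1.39 (SE 0.23) and 1.93 (SE 0.27), and Rgs1, which damps chemokine receptor signals, by 0.95 (SE 0.16). Genes less tied to lymphocytes were also higher: Avil (advillin, an actin-binding protein) by 1.78 (SE 0.34), Cntn1 (contactin, an adhesion protein) by 1.72 (SE 0.24), Nrgn (neurogranin, a calmodulin-binding protein) by 1.86 (SE 0.35), Mylk (myosin light chain kinase) by 1.70 (SE 0.31) and Col27a1 (a fibrillar collagen) by 1.97 (SE 0.32). Nrgn stood at 238 to 494 CPM in DETCs, against 23.7 to 176 CPM in the other Cd3-positive cells, without overlap. Cers4, Rcc1l and Gm2237 completed the 15 named genes with the largest increases.

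Lower in DETCs were Maf, a transcription factor of dermal and helper T cells (log2 -1.09, SE 0.22, adjusted p = 0.042 in edgeR), and genes of keratinocytes, fibroblasts or macrophages. These included Ccn1 (-2.04, SE 0.33), Mmp3 (-1.54, SE 0.31), Epcam (-1.54, SE 0.25), Hspb1 (-1.33, SE 0.25), Sdc4, Slco3a1 and Krt79. The chemokines Ccl3 and Ccl4 and the macrophage marker Pf4 were called lower too, with 0, 4 and 1 UMIs in all DETCs. Both classes share a library's depth and free RNA. The other Cd3-positive cells held fewer Cd3 transcripts: Cd3e was found in 46.0% to 69.7% of them and in 74.4% to 100% of DETCs. Their cells can thus include barcodes with a stray Cd3 UMI. As they also held Trdv4, they can include DETCs whose Trdc or Tcrg-V5 was not captured. Neither part was tested. The number of genes called was 270 (10.5%) without cells above 5000 UMIs in either class, 112 higher (4.35%) and 158 lower (6.14%). It was 0 without the 8-week PBMC-sec library, 3 without the 26-week untreated one, 8 without the 52-week untreated one, 9 without the 26-week PBMC-sec one, 20 without the 8-week untreated one and 121 without the 52-week PBMC-sec one.

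The other T cell classes defined by the genes of the rule held few cells: 27 Cd163l1-positive and 20 Trac-positive cells in all, with 0 to 8 per library. Against the Cd163l1-positive cells 154 of 1977 genes (7.79%) passed the edgeR test, 123 higher (6.22%) and 31 lower (1.57%) in DETCs. Lower were genes of dermal gamma-delta T cells: Il17f, the cytokine, Blk, a kinase, Ccr2, a chemokine receptor (log2 -7.06, SE 0.93, adjusted p = 3.2e-11 in edgeR), Il7r, the interleukin-7 receptor (-4.23, SE 0.75), Pdcd1 and Icos. DETCs held 0 UMIs of Il17f, Blk and Ccr2. Cd7 (4.40, SE 0.73), Fcer1g (4.35, SE 0.77), Xcl1 (4.54, SE 1.01) and Prf1 (4.25, SE 1.002) were higher in DETCs. Gzmc, read mostly in treated DETCs, was called higher as well. The median over all genes in that comparison was shifted by 0.65 on the log2 scale. Against the Trac-positive cells 187 of 1657 genes (11.3%) passed, 181 higher (10.9%) and 6 lower (0.362%), with a shift of 0.41. Lower in DETCs were Icos (-2.83, SE 0.97), Gpr183 (-3.06, SE 1.07) and Nr4a1 (-1.94, SE 0.57). With cells under 1000 UMIs left out and the others thinned to 1000 UMIs, these counts fell to 6 and 0 genes.

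DETCs made up 1.30%, 1.65% and 0.869% of kept cells at 8, 26 and 52 weeks with PBMC-sec and 1.12%, 1.97% and 0.705% untreated. Exact 95% binomial intervals, which cover counting error only, were 1.02% to 1.64%, 1.35% to 2.01% and 0.630% to 1.17% with PBMC-sec and 0.911% to 1.35%, 1.62% to 2.37% and 0.461% to 1.03% untreated. The treated share was the larger at 8 and 52 weeks and the smaller at 26 weeks, with log2 ratios of 0.22, -0.25 and 0.30 (mean 0.09, SD 0.30, n = 3 ages). An exact two-sided sign-flip permutation test over the 3 ages gave p = 0.75, and the smallest p that it can give is 0.25. With DETCs defined by a Tcrg-V5 UMI the mean log2 ratio was -0.78. With cells under 1000 UMIs left out and the others thinned to 1000 UMIs it was -0.71. That setting kept 23, 55 and 22 DETCs at 8, 26 and 52 weeks with PBMC-sec and 70, 70 and 17 untreated. Without kept cells above 5000 UMIs it was 0.49. With the repeated profiles left out the mean was -0.16. The 8-week ratio then turned to -0.50, with 1.30% treated against 1.85% untreated. Dissociation yields and the depth at which a Cd3 or Trdc UMI is seen both enter these shares.

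**Figure D2:**
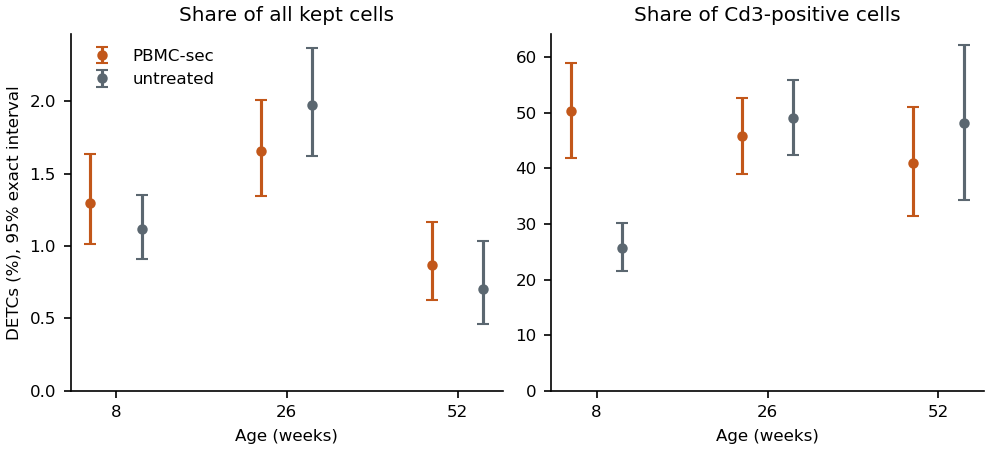
DETCs as a percent of all kept cells (left) and of Cd3-positive cells (right) by age in weeks, for PBMC-sec (orange) and untreated (grey) skin, 1 library per point with exact 95% binomial intervals for counting error. The intervals of the pair at each age overlap on the left, and the 26-week points are the highest there.

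By age, the 26-week libraries had the largest shares and the 52-week libraries the smallest, in treated and untreated skin alike. With a Tcrg-V5 UMI required the shares at 8, 26 and 52 weeks were 0.788%, 0.490% and 0.182% with PBMC-sec and 0.758%, 1.02% and 0.461% untreated, so that the treated 8-week library then had more than the 26-week one. Among Cd3-positive cells the DETC share was 50.4%, 45.8% and 41.0% with PBMC-sec and 25.7%, 49.1% and 48.1% untreated. The low value at 8 weeks untreated is that of the library with the repeated profiles, where 185 of the 295 other Cd3-positive barcodes were repeated ones.

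PBMC-sec-treated skin was then compared with untreated skin within DETCs, on UMI sums per library with age as a factor. Of 3482 genes outside the rule, 22 (0.632%) passed an adjusted p of 0.05 in edgeR, 13 higher (0.373%) and 9 lower (0.258%) with PBMC-sec, and 224 of 3487 (6.42%) had an unadjusted p under 0.05. Granzyme C rose most among the genes named by rule, and granzyme B and the histone genes Hist1h1c and Hist1h2bc rose as well. That rule asked for no overlap between treated and untreated libraries. The lack of overlap in Gzmc, Hist1h1c, Hist1h2bc and Ptpn6 below is thus part of their choice and not a further result. Ptpn6, the phosphatase SHP-1 that damps lymphocyte receptor signals, fell. Without DETCs above 5000 UMIs 19 of 2127 genes (0.893%) passed, 9 higher (0.423%) and 10 lower (0.47%), and 180 of 2132 (8.44%) had an unadjusted p under 0.05. The genes called both ways were 6, namely Gzmc, Gzmb, Hist1h1c, Hist1h2bc, Sprr1b and Ptpn6. With 1 library per condition, the p-values rest on spread between the 3 ages, not between replicate animals. In edgeR the spread of each gene is moderated by that of all genes, so a called gene can still differ between ages.

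**Figure D3:**
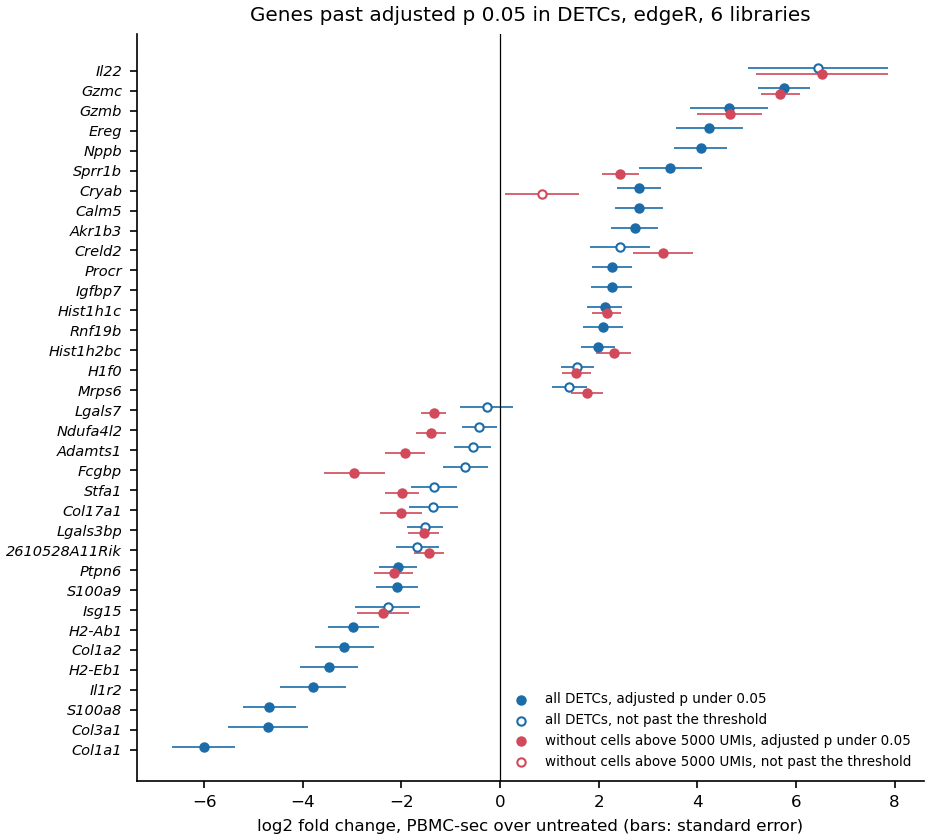
log2 fold changes, PBMC-sec over untreated, with standard errors, for genes past adjusted p 0.05 with all DETCs (blue) or without those above 5000 UMIs (red). Open circles did not pass, and genes with a single mark did not pass the low-count filter in the other fit. Gzmc lies at 5.76 and 5.68 in the 2 fits, while Col1a1, H2-Ab1 and S100a8 have a mark in the fit with deep barcodes alone.

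Gzmc (chr14:56231441-56234656, minus strand, GRCm38) encodes granzyme C, a serine protease of killer cell granules that is known to appear in strongly activated mouse lymphocytes. It had 114, 172 and 44 UMIs in DETCs at 8, 26 and 52 weeks with PBMC-sec, against 2, 5 and 1 UMIs untreated. In CPM these were 1207, 800.1 and 327 with PBMC-sec and 8.34, 22.8 and 14.3 untreated, or 778 ± 441 CPM and 15.2 ± 7.29 CPM (SD over 3 ages). The treated libraries lay above the untreated ones at each age without overlap. The ratio, with a 95% interval for counting error only, was 145 (39.2 to 1210) at 8 weeks, 35.0 (14.7 to 109) at 26 weeks and 22.9 (3.91 to 926) at 52 weeks. The log2 fold change was 5.76 (SE 0.52, adjusted p = 0.00038 in edgeR), 5.68 without DETCs above 5000 UMIs and 4.40 (adjusted p = 0.039 in edgeR) for DETCs with a Tcrg-V5 UMI.

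The Gzmc increase came from a minority of DETCs. A Gzmc UMI was seen in 9, 10 and 6 DETCs with PBMC-sec and in 2, 3 and 1 untreated, in all 25 of 212 against 6 of 239. Of these, 14 treated and 0 untreated cells held 5 or more Gzmc UMIs, and the highest cell held 48, 81 and 20 UMIs with PBMC-sec against 1, 2 and 1 untreated. The top cell accounted for 42.1% to 47.1% of a treated library's Gzmc UMIs. A Trdv4 UMI was present in 18 of the 25 treated and 6 of the 6 untreated Gzmc-positive cells, and 1 treated Gzmc-positive cell was above 5000 UMIs. Gzmc UMIs were thus few in number of cells, and the counting intervals above do not cover that spread between cells.

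Gzmb (chr14:56258838-56262260, minus strand) encodes granzyme B, the main death-inducing granzyme. It had 67, 51 and 4 UMIs with PBMC-sec, against 4, 0 and 3 UMIs untreated, or 710, 237 and 29.7 CPM and 16.7, 0 and 42.8 CPM. Treated libraries were higher at 8 weeks (ratio 42.5, 15.9 to 161) and at 26 weeks (at least 17.3-fold, against 3 counts in the untreated library), but not at 52 weeks (ratio 0.695, 0.118 to 4.74). The log2 fold change was 4.64 (SE 0.79, adjusted p = 0.027 in edgeR), and DESeq2 gave an adjusted p of 0.90. Gzmb was called in 11 of its 13 alternatives, and without the 8-week or the 26-week pair, or with a Tcrg-V5 UMI required, it was too low to be tested. Both granzymes were found together in 14 treated and 0 untreated DETCs, while 33 treated and 12 untreated DETCs held at least 1 of them.

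**Figure D4:**
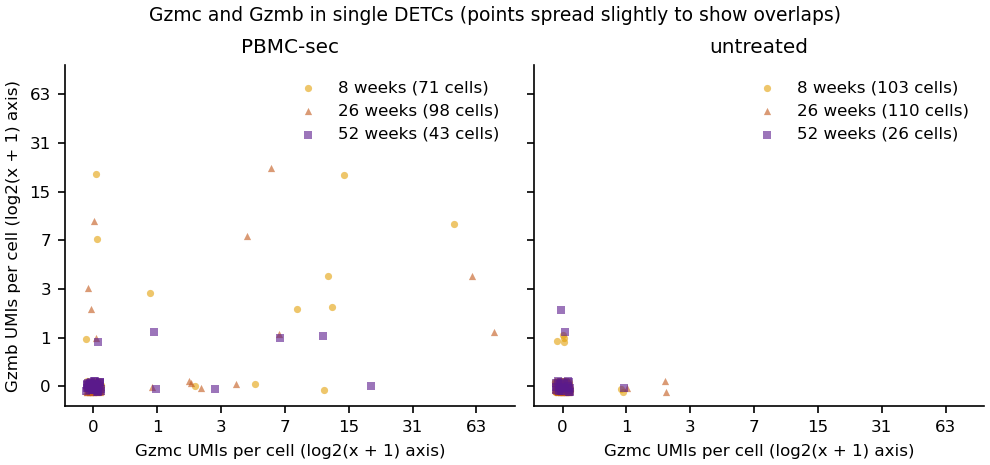
Gzmc UMIs (horizontal) and Gzmb UMIs (vertical) in each DETC, on log2(x + 1) axes with slight spread, for PBMC-sec (left, 212 cells) and untreated skin (right, 239 cells), with colour and shape for age in weeks. Cells with 5 or more Gzmc UMIs number 14 on the left and 0 on the right, and 14 cells on the left hold both transcripts.

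Of the 10 granzyme genes in the files, 7 had 0 UMIs in DETCs (Gzma, Gzmd, Gzmf, Gzmg, Gzmk, Gzmm and Gzmn), and Gzme had 1 UMI, at 26 weeks with PBMC-sec. The 250 bases before the RefSeq start sites (GRCm38.p6, minus strand) of Gzmc, Gzmb and of Gzmd on the same chromosome are shown because Gzmc and Gzmb passed the treatment test, while Gzmd had 0 UMIs in DETCs. Capitals mark TGTGGT, the core bound by Runx factors, and TGACGT, the core bound by CREB and ATF factors, on either strand. The windows are chr14:56234658-56234907 (Gzmc), chr14:56262335-56262584 (Gzmb) and chr14:56132594-56132843 (Gzmd).
Gzmc: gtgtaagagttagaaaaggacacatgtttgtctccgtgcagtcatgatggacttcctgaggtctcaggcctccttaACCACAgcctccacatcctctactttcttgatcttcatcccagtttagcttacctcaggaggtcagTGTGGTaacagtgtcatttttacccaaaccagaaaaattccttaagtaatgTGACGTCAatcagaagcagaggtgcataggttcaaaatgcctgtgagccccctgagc
Gzmb: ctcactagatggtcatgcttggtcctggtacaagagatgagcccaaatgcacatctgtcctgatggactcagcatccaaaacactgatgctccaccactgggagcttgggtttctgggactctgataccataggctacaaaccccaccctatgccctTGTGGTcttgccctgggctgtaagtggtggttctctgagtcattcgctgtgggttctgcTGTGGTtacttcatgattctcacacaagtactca
Gzmd: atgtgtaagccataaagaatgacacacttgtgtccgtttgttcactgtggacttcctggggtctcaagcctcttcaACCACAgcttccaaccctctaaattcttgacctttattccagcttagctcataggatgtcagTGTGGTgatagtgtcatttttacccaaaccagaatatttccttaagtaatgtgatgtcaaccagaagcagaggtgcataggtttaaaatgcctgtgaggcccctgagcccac

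Aligned end to end, the Gzmc window was 80.9% identical to that of Gzmd and 33.0% to that of Gzmb. The windows of Gzmc, Gzmb and Gzmd each held TGTGGT at 2 places, and 14.05% of 32851 RefSeq promoter windows held it. The Gzmc window held TGACGT on both strands, overlapping between bases -57 and -50 from the start, and 6.47% of promoters held that motif. Neither of the other windows did. The Gzmb window held the AP-1 motif TGANTCA at -58 to -52 (6.75% of promoters), and the STAT motif TTCNNNGAA (7.02% of promoters) was in none of the 3. These matches are letters in a window and not shown to be bound. Granzyme C and granzyme D belong to a family of similar genes, so reads shared between copies could have been lost or moved in the authors' counting.

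Il22 (chr10:118204942-118210047, plus strand) encodes interleukin-22, a cytokine that acts on keratinocytes. It had 1, 27 and 9 UMIs with PBMC-sec, in 1, 3 and 2 cells, against 0, 0 and 0 UMIs in 0 cells untreated. Against a floor of 3 counts per untreated library, Il22 was at least 9.16-fold higher at 26 weeks and at least 1.56-fold higher at 52 weeks. It did not pass with all DETCs (log2 fold change 6.45, SE 1.42, adjusted p = 0.11 in edgeR) and passed without DETCs above 5000 UMIs (adjusted p = 0.037 in edgeR). A single 26-week cell held 21 of the 27 UMIs. With a Tcrg-V5 UMI required Il22 and Isg15 were too low to be tested.

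Both Gzmc and Il22 depend on the Trac criterion of the rule. At 52 weeks untreated, 6 cells were left out by Trac alone, each with 1 Trac UMI. They held 21 Gzmc and 10 Il22 UMIs, the Gzmc UMIs in 2 of the cells. These 6 cells also held 24 UMIs of Trdv4, the delta segment of the DETC receptor. The 26 DETCs of that library held 72. Whether the cells left out were DETCs was not tested. At the other ages and treatments the cells left out by Trac held 0 or 1 Gzmc UMI. With the Trac criterion dropped, the Gzmc fold change was 3.80 on the log2 scale (SE 0.95, adjusted p = 0.19 in edgeR) and that of Il22 1.67 (adjusted p = 0.93). Gzmc passed in 17 of 18 alternatives, the exception being this one, with adjusted p-values from 1.7e-20 to 0.19.

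**Figure D5:**
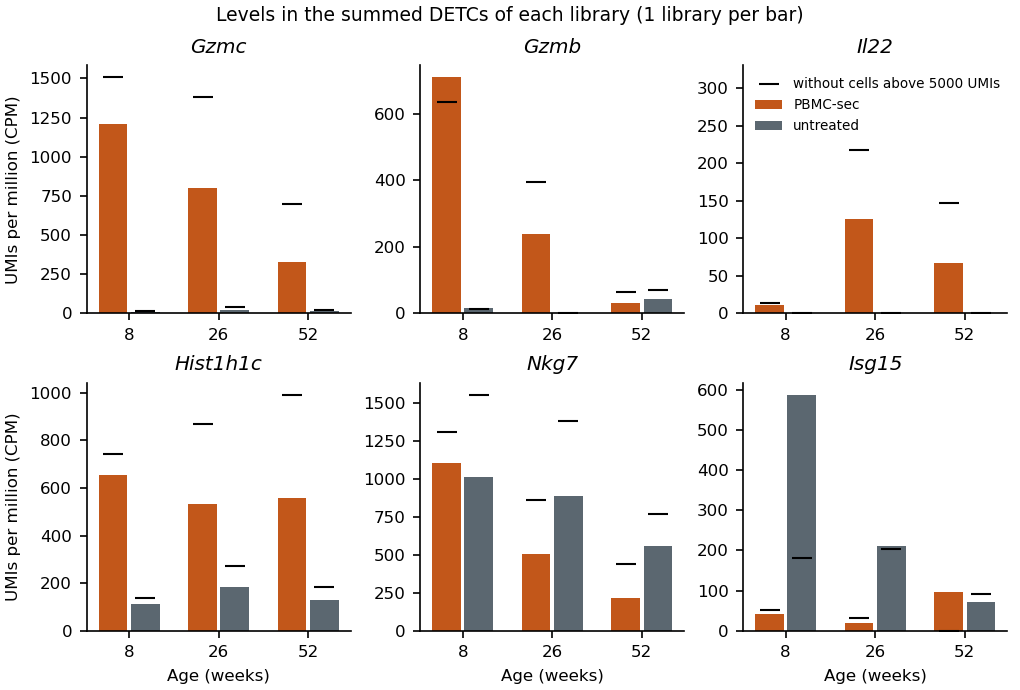
CPM in the summed DETCs by age in weeks for Gzmc, Gzmb, Il22, Hist1h1c, Nkg7 and Isg15, with PBMC-sec left (orange) and untreated right (grey), 1 library per bar and dashes for the level without DETCs above 5000 UMIs. Gzmc stands at 1207, 800.1 and 327 CPM with PBMC-sec against 8.34, 22.8 and 14.3 CPM untreated, and Hist1h1c is the higher with PBMC-sec at each age.

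Whether the Gzmc difference was particular to DETCs was tested as the difference of differences. Against all other kept cells, Gzmc was the 1 gene of 3482 (0.0287%) past the threshold, with a log2 value of 8.37 (adjusted p = 0.00041 in edgeR), and 191 genes (5.48%) had an unadjusted p under 0.05. The value was 7.82 without kept cells above 5000 UMIs (adjusted p = 1.9e-10), 8.91 without the 8-week pair and 8.72 without the 52-week pair, past the threshold in each. The other cells held 23, 58 and 88 Gzmc UMIs with PBMC-sec and 9, 677 and 25 untreated, and 609 of the 677 sat in 1 barcode with 0 Cd3 UMIs. The fit was not run without that barcode alone. Without the 26-week pair the value was 5.17 (adjusted p = 0.064), and against the other Cd3-positive cells it was 3.00 (SE 1.12, adjusted p = 0.63, edgeR). Granzyme C was therefore not shown to respond differently in DETCs than in the other Cd3-positive cells. That class also held Trdv4 UMIs, so it can include DETCs whose Trdc or Tcrg-V5 was not captured, beside barcodes with a stray Cd3 UMI. Their part in this value was not tested. Without kept cells above 5000 UMIs 15 of 2127 genes (0.705%) passed this test, 11 higher (0.517%) and 4 lower (0.188%), with 179 (8.4%) at an unadjusted p under 0.05.

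Hist1h1c (chr13:23738808-23740367, plus strand) encodes a linker histone. It had 62, 115 and 75 UMIs with PBMC-sec, against 27, 40 and 9 UMIs untreated, or 657, 535 and 558 CPM against 113, 183 and 128 CPM. All treated libraries lay above all untreated ones. The log2 fold change was 2.12 (SE 0.36, adjusted p = 0.027 in edgeR) and held in 17 of 18 alternatives, all but the one restricted to Tcrg-V5-positive DETCs (1.60, adjusted p = 0.41). Hist1h2bc (chr13:23684199-23692908, plus strand), a core histone H2B gene, had 19, 74 and 32 UMIs with PBMC-sec and 10, 24 and 4 untreated (log2 fold change 1.99, SE 0.35, adjusted p = 0.027 in edgeR). It passed in 16 of 18 alternatives, not in DESeq2 (adjusted p = 0.29) or with a Tcrg-V5 UMI required. H1f0, a further linker histone gene, passed without DETCs above 5000 UMIs (1.55, adjusted p = 0.017 in edgeR). In other kept cells Hist1h1c stood at 168, 112 and 267 CPM with PBMC-sec and 89.0, 56.7 and 113 CPM untreated, also higher in treated skin at each age, and the difference of differences did not pass.

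Ptpn6 had 5, 5 and 5 UMIs with PBMC-sec, against 41, 22 and 18 UMIs untreated, or 53.0, 23.3 and 37.2 CPM against 171, 101 and 257 CPM. The untreated libraries were the higher at each age without overlap (log2 fold change -2.07, SE 0.39, adjusted p = 0.032 in edgeR). Ptpn6 passed in 11 of 18 alternatives. Its adjusted p was 0.55 in DESeq2 and 0.46 there without DETCs above 5000 UMIs. In edgeR it was 0.098 without the 26-week pair, 0.097 without that pair and the deep barcodes, 0.075 with sums thinned to the smallest total, 0.058 for DETCs with at least 2 Cd3 UMIs and 0.41 with Tcrg-V5.

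Several other called genes are known from the cells around DETCs. Sprr1b, a cornified envelope protein of keratinocytes, had 455, 3354 and 2714 CPM in DETCs with PBMC-sec and 142, 261 and 85.6 CPM untreated (log2 fold change 3.45, SE 0.64, adjusted p = 0.030 in edgeR). In all other kept cells it had 2884, 3784 and 4674 CPM with PBMC-sec and 860, 965 and 648 CPM untreated, so it was higher in treated skin outside DETCs too. With a Tcrg-V5 UMI required Sprr1b had 2.44 (adjusted p = 0.50). Cryab, a small heat shock protein (2.82, SE 0.44), Akr1b3, an aldose reductase (2.73, SE 0.48), Procr (2.27, SE 0.41) and Igfbp7 (2.27, SE 0.42) were called with deep barcodes. Without these Cryab had 0.84 (adjusted p = 0.87) and the others were too low to be tested. Genes of fibroblasts (Col1a1, Col1a2, Col3a1), antigen-presenting cells (H2-Ab1, H2-Eb1) and neutrophils (S100a8, S100a9), and Il1r2, were called lower with PBMC-sec. Col1a1 had 1, 0 and 1 UMIs with PBMC-sec and 54, 2 and 92 untreated (log2 fold change -6.01, SE 0.64), and H2-Ab1 had 3, 22 and 4 and 188, 146 and 6 (-2.97, SE 0.51). None of these 8 could be tested without the deep barcodes. The fibroblast list summed to 1832, 107 and 394 CPM at 8, 26 and 52 weeks with PBMC-sec and 1727, 238 and 2241 CPM untreated, lower in treated DETCs at 26 and 52 weeks but not at 8 weeks. The Langerhans and dendritic cell list summed to 159, 1130 and 126 CPM with PBMC-sec and 6910, 4926 and 199.8 CPM untreated, lower at each age. The part of such cells in these results was not tested.

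Genes of the DETC programme other than the granzymes did not pass the treatment test. Of 16 tested DETC-associated genes 1, Gzmb, was called, 9 had positive and 7 negative values, and their median was 0.04, against 0.01 over all genes. Trdv4 had 1260, 721 and 275 CPM with PBMC-sec and 1506, 1275 and 1027 CPM untreated (log2 fold change -0.87, SE 0.40, adjusted p = 0.77 in edgeR). Nkg7 had 1102, 507 and 216 CPM with PBMC-sec and 1013, 886 and 557 CPM untreated (-0.56, SE 0.38, adjusted p = 0.91). Trdv4 was lower in the treated library at each age, with ratios of 0.837, 0.566 and 0.268 at 8, 26 and 52 weeks. Intervals for counting error only were 0.675 to 1.03, 0.462 to 0.691 and 0.175 to 0.403. Nkg7 was lower in treated libraries at 26 and 52 weeks and higher at 8 weeks. Neither gene passed the test, which rests on the spread between ages. Prf1, Ctsw and Srgn, the granule proteoglycan (0.39, SE 0.36), did not pass either, and of 12 tested cytotoxic granule genes Gzmc and Gzmb were the 2 called.

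Genes by which DETCs act on the epidermis were measured without a call. Areg, an epidermal growth factor family ligand, had 392, 600.1 and 1666 CPM with PBMC-sec and 480, 539 and 528 CPM untreated (log2 fold change 0.59, SE 0.48, adjusted p = 0.95 in edgeR). It was higher at 26 and 52 weeks and lower at 8 weeks. Of 8 tested cytokine and repair genes 0 were called, 4 with positive and 4 with negative values. Without DETCs above 5000 UMIs Il22 was called among the 5 that could be tested. Xcl1 had 710, 195 and 186 CPM with PBMC-sec and 234, 247 and 214 CPM untreated (0.50, SE 0.39, adjusted p = 0.95), higher at 8 weeks alone. Il2rb, the shared interleukin-2 and interleukin-15 receptor chain that DETCs rely on, had 572, 414 and 409 CPM with PBMC-sec and 550.5, 525 and 614 CPM untreated (-0.19, SE 0.34, adjusted p = 0.99).

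Interferon-stimulated genes were not called with all DETCs. All 6 tested genes of the type I interferon list had negative values with all DETCs (median -1.66), of which 0 passed. With the deep barcodes left out 4 could be tested, 1 positive and 3 negative (median -0.67), and 1 passed. Isg15, the ubiquitin-like interferon-induced protein, had 4, 4 and 13 UMIs with PBMC-sec and 141, 46 and 5 UMIs untreated (log2 fold change -2.28, SE 0.66, adjusted p = 0.29 in edgeR). It was lower with PBMC-sec at 8 and 26 weeks and not at 52 weeks. Isg15 passed without DETCs above 5000 UMIs (-2.38, adjusted p = 0.043) and without the 52-week pair (-3.65, adjusted p = 1.4e-05). In all other kept cells it stood at 106, 67.3 and 256 CPM with PBMC-sec and 421, 329 and 505 CPM untreated, lower in treated skin at each age.

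In the remaining lists 0 or 1 genes were called, where 0.632% of all genes tested were. Immediate early and dissociation genes gave 0 of 20 (9 positive, 11 negative, median -0.13), antigen receptor response genes 0 of 13 (median -0.02), co-stimulation and checkpoint genes 0 of 7 (6 negative, median -0.56) and innate-like transcription factors 0 of 14 (median 0.12). Skin homing genes gave 0 of 10 (median 0.14), NK receptors 0 of 7 (median -0.13), T cell receptor complex genes 0 of 14 (median -0.03) and chemokines 0 of 2. Heat shock genes gave 1 of 15, Cryab, and cytokine receptors 1 of 14, Il1r2. NRF2 antioxidant genes gave 0 of 16 (13 positive, median 0.45), ribosomal proteins 0 of 18 (17 positive, median 0.26), glycolysis 0 of 14 (median 0.20), oxidative phosphorylation 0 of 17 (median -0.01) and class I presentation 0 of 10 (median -0.03). Unfolded protein response genes gave 0 of 12 (median 0.19), survival genes 0 of 11 (median 0.18), cell cycle genes 0 of 6 (median -0.16), cytoskeleton genes 0 of 20 (median 0.09) and lipid genes 0 of 10 (median 0.22). With the deep barcodes left out, where 0.893% of all genes were called, several lists turned. Cytoskeleton genes had 12 positive and 8 negative values with all DETCs, and 5 and 15 without the deep barcodes (median -0.27). Lipid genes had a median of -0.42 over the 4 that could be tested, cytokine receptors of 0.25 over 12, class I presentation of 0.15 over 7, and the T cell receptor complex of 0.03 over 12. The keratinocyte list had a median of -0.50 over 11 genes with 1 called lower, where it had 0.62 over 12 with all DETCs. Unfolded protein response genes then gave 1 of 12, Creld2, while heat shock and cytokine receptor genes gave 0.

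Age was tested in the same fit, each age being represented by its PBMC-sec and its untreated library, which may share animals. For 52 against 8 weeks 0 of 3482 genes (0%) passed in edgeR, with 306 (8.78%) at an unadjusted p under 0.05, and DESeq2 called 1 gene, Cxcl1. Of 16 tested DETC-associated genes 15 had negative values (median -0.41), but without DETCs above 5000 UMIs 9 were positive and 7 negative (median 0.07). Nkg7 had 216 and 557 CPM in the 52-week PBMC-sec and untreated libraries and 1102 and 1013 CPM in those of 8 weeks, without overlap (log2 -1.58, SE 0.48, adjusted p = 0.26 in edgeR), and the value without the deep barcodes was -1.29 (adjusted p = 0.18). Hspa1a, the inducible HSP70, had 1190 and 1413 CPM at 52 weeks and 297 and 325 CPM at 8 weeks, in the same order (2.10, SE 0.46, adjusted p = 0.14), with 535 and 745 CPM at 26 weeks. Without DETCs above 5000 UMIs Hspa1a stood at 2310 and 116 CPM at 52 weeks and 265 and 333 CPM at 8 weeks, so that the groups overlapped. Aqp3, a keratinocyte water channel, was then the 1 gene called (0.047%), as lower at 52 weeks, and 210 genes (9.85%) had an unadjusted p under 0.05.

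For 26 against 8 weeks 21 genes (0.603%) passed, 4 higher (0.115%) and 17 lower (0.488%) at 26 weeks, with 195 (5.59%) at an unadjusted p under 0.05. Of the 16 tested DETC-associated genes 0 passed, and 1 of 14 cytokine receptor genes, 1 of 8 cytokine and repair genes and 1 of 16 NRF2 genes were lower. The higher ones were Sprr2e, Sprr2d, Ccl20 and Ifi202b. The lower ones included Cxcl3, Il6, Ptx3, C3, Csf1, Cxcl5 and Cxcl1, inflammatory genes of keratinocytes and fibroblasts. Cxcl1 had 74.4 and 247 CPM at 26 weeks with PBMC-sec and untreated and 2849 and 2260 CPM at 8 weeks (log2 -3.98, SE 0.65, adjusted p = 0.021 in edgeR). All other kept cells held 1677 and 1404 CPM of Cxcl1 at 26 weeks and 2754 and 954 CPM at 8 weeks. Without DETCs above 5000 UMIs 0 genes passed in edgeR, with 60 (2.81%) at an unadjusted p under 0.05.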

How the data were processed

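The deposited files hold UMI counts per gene and barcode, made by the authors with Cell Ranger 5.0.1 per the file headers and the mm10 genome per the submitters' processing notes. No source used here gives the annotation release. No normalization had been applied. Cells were kept as stated at the start, DETCs were summed per library, and genes were tested with edgeR 4.0.16 (R 4.3.3; TMM, filterByExpr, quasi-likelihood, Benjamini-Hochberg) with age and treatment as terms, which leaves 2 residual degrees of freedom; SE is the log2 fold change over the root of F. DESeq2 1.42.0 was an alternative. Clustering used scanpy 1.11.5, doublets were scored with Scrublet (40 DETCs had scores in the removed range) and left in, except in 1 alternative. Genes were named when past adjusted p 0.05, with 10 or more UMIs and without overlap between groups, up to 15 each way, plus called and most abundant list members. In the tests between cell classes the same direction in each library took the place of no overlap. Members and lists were chosen with earlier results of these data known; genes that the text singles out beyond this were chosen after their values were seen. On simulated counts of 3487 genes for the treatment test, 84% of 200 genes changed by 2 on the log2 scale were recovered. Of 200 changed by 4, 97.5% were recovered, and 10 and 9 unchanged genes were called in the 2 runs. The changed genes were drawn only from genes at or above a set mean CPM. The simulated sums had no age differences and no single cells of outlying counts. Recovery of rarer genes, or of genes carried by few cells, was not measured. Intervals cover counting error only.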

Additional observations from a re-analysis of the deposited data

Results flagged for a closer look

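In data outside the DETCs, a Trdc UMI was seen in 19.4731%, 19.7168% and 33.4582% of Cd3-negative, collagen-rich cells at 8, 26 and 52 weeks with PBMC-sec, above the 3.95%, 5.80% and 6.503% of the untreated libraries. Tcrg-V5 was at 0 in these cells, and a Trdv4 UMI was seen in 0, 2 and 0 of them with PBMC-sec and in 9, 2 and 2 untreated. The cause was not tested.

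The treatment difference of Gzmc in DETCs exceeded that in all other kept cells by 8.3691 on the log2 scale, by a test of the difference itself (edgeR, adjusted p = 0.00041). It was 7.82 without kept cells above 5000 UMIs (adjusted p = 1.9e-10). It was 5.17 without the 26-week pair (adjusted p = 0.064), where 1 Cd3-negative barcode held 609 of the 677 Gzmc UMIs of other untreated cells, and 3.00 against other Cd3-positive cells (adjusted p = 0.63).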

How the results depend on the processing

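The treatment test called 22 genes, against 10 with DESeq2, 82 without the filter on low counts, 12 for DETCs with a Tcrg-V5 UMI and 6 with DESeq2 without DETCs above 5000 UMIs, and 7 to 52 when an age pair was left out. For 52 against 8 weeks the 0 calls became 1 with DESeq2, 93 without the filter, 2 with Tcrg-V5, 32 with thinned sums, 19 without the highest Scrublet scores, 1 without DETCs above 5000 UMIs, and 28 to 136 with a library left out. For 26 against 8 weeks the 21 calls became 9 with DESeq2, 100 without the filter, 5 with Tcrg-V5, 0 without DETCs above 5000 UMIs, and 27 to 141 with a library left out, and Hmox1 turned to 0.53 without the deep barcodes. The difference of differences called 1 gene, 15 without kept cells above 5000 UMIs, 2 against other Cd3-positive cells, and 0 to 37 with a pair left out.

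Against other Cd3-positive cells 59 genes were called, 294 without the filter, 270 without cells above 5000 UMIs and 0 to 121 with a library left out. Against Trac-positive cells the 187 calls became 8 with DESeq2, 55 with RLE size factors (45 higher, 10 lower) and 510 without the filter. They became 0 with cells under 1000 UMIs left out and the others thinned to 1000 UMIs, and 81 to 189 with a library left out. Thinning turned Cxcl2 to -0.55, Areg to -0.25, Mt2 to -0.45, Rpl13 to -0.042, Rpsa to -0.044 and Krt14 to -0.11. Against Cd163l1-positive cells the 154 calls became 43 with DESeq2, 99 with RLE (50 higher, 49 lower), 328 without the filter, 6 with thinning, and 23 to 101 with a library left out. There Il1r2 turned to -0.31 with DESeq2 and Mt2 to -0.024 with thinning. The mean log2 ratio of the DETC share was 0.09, -0.78 with Tcrg-V5, -0.71 with thinning and 0.49 without cells above 5000 UMIs. It was -0.16 without repeated profiles and -0.02 to 0.26 with an age left out. The causes were not tested. Of the values of named genes in the treatment test under these settings, 195 kept their direction and call and 53 kept their direction alone. Libraries were matched by age in the treatment fit and the share test, and replicate numbers gave no further match, since each age and treatment has 1 library. Low DETC counts, 26 at 52 weeks untreated, limit the rarer genes.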
